A study of Rattus norvegicus with 30 samples.

Results

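The genes described here are the chaperones, folding enzymes, degradation factors and stress sensors of the endoplasmic reticulum (ER), followed in primary rat hippocampal neurons given 1 of 3 drugs. These were 2 esters of fumaric acid, dimethyl fumarate (DMF) and its metabolite monomethyl fumarate (MMF), and the cannabinoid cannabidiol (CBD). The list held 40 gene symbols and was chosen by name after results of these data were known, those of the DMF libraries at 4 h among them, in which *Hspa5* and *Creld2* already stood out. Of the 40 symbols, 39 were listed in the tables, among 21993 genes in all. The remaining symbol, *Vimp*, is an older name of *Selenos*, which was listed. Because of this choice, the values of DMF at 4 h, and of every comparison that uses those libraries, are a description and carry no p-value here. Which other results guided the choice is not recorded. The p-values of the other comparisons therefore describe single genes and are no independent support for the list as a set. MMF at 4 h was tested against the same DMSO libraries as DMF at 4 h.

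Neurons were taken from wild-type Wistar rat embryos on embryonic day 18 and grown for 7 days. They then received DMF at 30 µM, MMF at 30 µM or CBD at 6 µM for 4 h or 24 h. DMF and MMF were dissolved in dimethyl sulfoxide (DMSO) and CBD in ethanol (EtOH), each vehicle at 0.2%, and vehicle alone was the control at each time. The 10 groups had 3 libraries each, and the replicate numbers mark independent repeats of the whole experiment. Whether a repeat used one litter or several pooled litters is not given in the sources used here. DMF at both times and MMF at both times were set against the same DMSO libraries.

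The libraries held 15108132 to 25367834 reads on genes, with a median of 20088658. The neuronal markers *Tubb3*, *Map2*, *Snap25* and 5 others were detected throughout, and their summed level was 64825 to 92935 normalized counts per library. Astrocyte markers were also abundant, at 37234 to 95781, and oligodendrocyte lineage markers summed to 9236 to 21500. The astrocyte sums were 37234 to 54073 in the libraries of replicate 3 and 62373 to 95781 in those of replicates 1 and 2. The part of this difference in the ER values was not tested. The 6 microglia markers summed to 19.4 to 185. Replicate 1 of CBD at 4 h and replicate 3 of DMF at 24 h stood apart from their groups in the ER genes. At 24 h of CBD all libraries were spread out, with summed ER levels of 93064, 113476 and 128598 in replicates 1, 2 and 3. In single genes such as *Herpud1*, CBD replicate 3 at 24 h lay furthest from the others. Results that rest on these libraries are given with and without them.

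The ER folds secreted and membrane proteins with the help of chaperones and of enzymes that form disulfide bonds. When unfolded proteins accumulate, 3 sensors in the ER membrane, ATF6, IRE1 (encoded by *Ern1*) and PERK (encoded by *Eif2ak3*), set off the unfolded protein response. ATF6 and XBP1, the factor made after IRE1 splices its mRNA, induce chaperones and degradation factors, whereas PERK slows translation and, through ATF4, induces *Ddit3*, *Trib3* and *Chac1*. Neurons depend on this system for the receptors and channels of their long processes.

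A known binding element for this response is the ER stress response element (ERSE), CCAAT and CCACG separated by 9 bases, and a second form (ERSE-II) is ATTGG and CCACG separated by 1 base. Both were searched on both strands in the RefSeq promoter windows of the GRCr8 build, each 300 bases long, from 250 before to 50 after a gene's start. Of the 39 listed genes, 32 had a window. An ERSE was found in 9 of the 32 (28.1%), against 21 of 27457 genes (0.0765%), and an ERSE-II in 3 of the 32 (9.38%), against 17 genes (0.0619%). The 9 were *Hspa5*, *Hsp90b1*, *Calr*, *Canx*, *Creld2*, *Dnajc3*, *Ero1b*, *Xbp1* and *Derl3*, and the 3 were *Hyou1*, *Dnajb11* and *Herpud1*. The CCAAT of an ERSE also counts as a CCAAT box, which 27 of the 32 held (84.4%), against 39.6% of genes. TGACGTG, a core shared by ATF6 and XBP1 sites, was in the windows of *Hspa5* and *Hyou1* (6.25%, against 2.02% of genes). The amino acid response half-site of the PERK branch, TGATG and AAT separated by 1 base, was in 0 of the 32 windows (1.14% of genes). These are matches of letters in the window and not measured sites. The list was chosen by name for the response to which these elements belong, so the shares describe it and support nothing.

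The *Hspa5* promoter is shown first because BiP, its product, is the most widely used readout of this response. It is the 250 bases before the start, on the plus strand at chr3:38452766-38453015, with the ERSE in capitals from 43 bases before the start. The element of *Dnajb11* begins 10 bases before the start and runs past it. It is not shown, as only bases before the start are printed. The others are shown to set their elements side by side, with 20 bases on each side where the window allows. Each reads 5′ to 3′ on the strand of its gene, with the elements in capitals. Where the element lies on the opposite strand, the capitals begin with CGTGG and end with ATTGG (ERSE) or with CCAAT (ERSE-II).
*Hspa5*: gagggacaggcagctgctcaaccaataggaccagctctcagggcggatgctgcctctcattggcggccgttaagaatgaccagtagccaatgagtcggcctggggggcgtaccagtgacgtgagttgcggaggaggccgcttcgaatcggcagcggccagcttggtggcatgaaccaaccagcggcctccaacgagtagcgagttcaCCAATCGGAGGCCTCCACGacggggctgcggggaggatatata
*Hsp90b1*: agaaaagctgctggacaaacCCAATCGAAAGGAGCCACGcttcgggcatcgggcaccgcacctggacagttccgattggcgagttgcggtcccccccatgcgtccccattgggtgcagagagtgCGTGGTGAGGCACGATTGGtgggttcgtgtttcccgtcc
*Calr*: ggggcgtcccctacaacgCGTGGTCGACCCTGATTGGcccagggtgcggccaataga
*Creld2*: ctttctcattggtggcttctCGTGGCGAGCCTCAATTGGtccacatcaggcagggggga
*Dnajc3*: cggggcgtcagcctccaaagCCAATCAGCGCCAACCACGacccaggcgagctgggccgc
*Ero1b*: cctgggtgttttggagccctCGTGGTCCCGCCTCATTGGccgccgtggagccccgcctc
*Xbp1*: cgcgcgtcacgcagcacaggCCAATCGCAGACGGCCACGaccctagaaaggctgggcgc
*Canx*: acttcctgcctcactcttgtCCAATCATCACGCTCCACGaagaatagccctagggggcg
*Derl3*: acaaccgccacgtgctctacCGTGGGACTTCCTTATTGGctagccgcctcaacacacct
*Herpud1*: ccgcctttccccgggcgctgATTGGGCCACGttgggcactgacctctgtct
*Hyou1*: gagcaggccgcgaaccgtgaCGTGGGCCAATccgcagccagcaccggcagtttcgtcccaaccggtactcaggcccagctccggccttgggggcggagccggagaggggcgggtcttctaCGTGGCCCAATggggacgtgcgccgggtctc
Positions in GRCr8 were chr7:23012327-23012489 (minus strand) for *Hsp90b1*, chr19:40213117-40213173 (plus strand) for *Calr*, chr7:121789219-121789277 (plus strand) for *Creld2*, chr15:102432514-102432572 (plus strand) for *Dnajc3*, chr17:92941438-92941496 (plus strand) for *Ero1b*, chr14:84604538-84604596 (plus strand) for *Xbp1*, chr10:35158049-35158107 (minus strand) for *Canx*, chr20:12766581-12766639 (minus strand) for *Derl3*, chr19:10614801-10614851 (minus strand) for *Herpud1* and chr8:53602674-53602824 (plus strand) for *Hyou1*. The *Hsp90b1* stretch held 2 ERSEs, one in each orientation. The *Hyou1* stretch held 2 ERSE-II matches on the opposite strand.

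**Figure D1:**
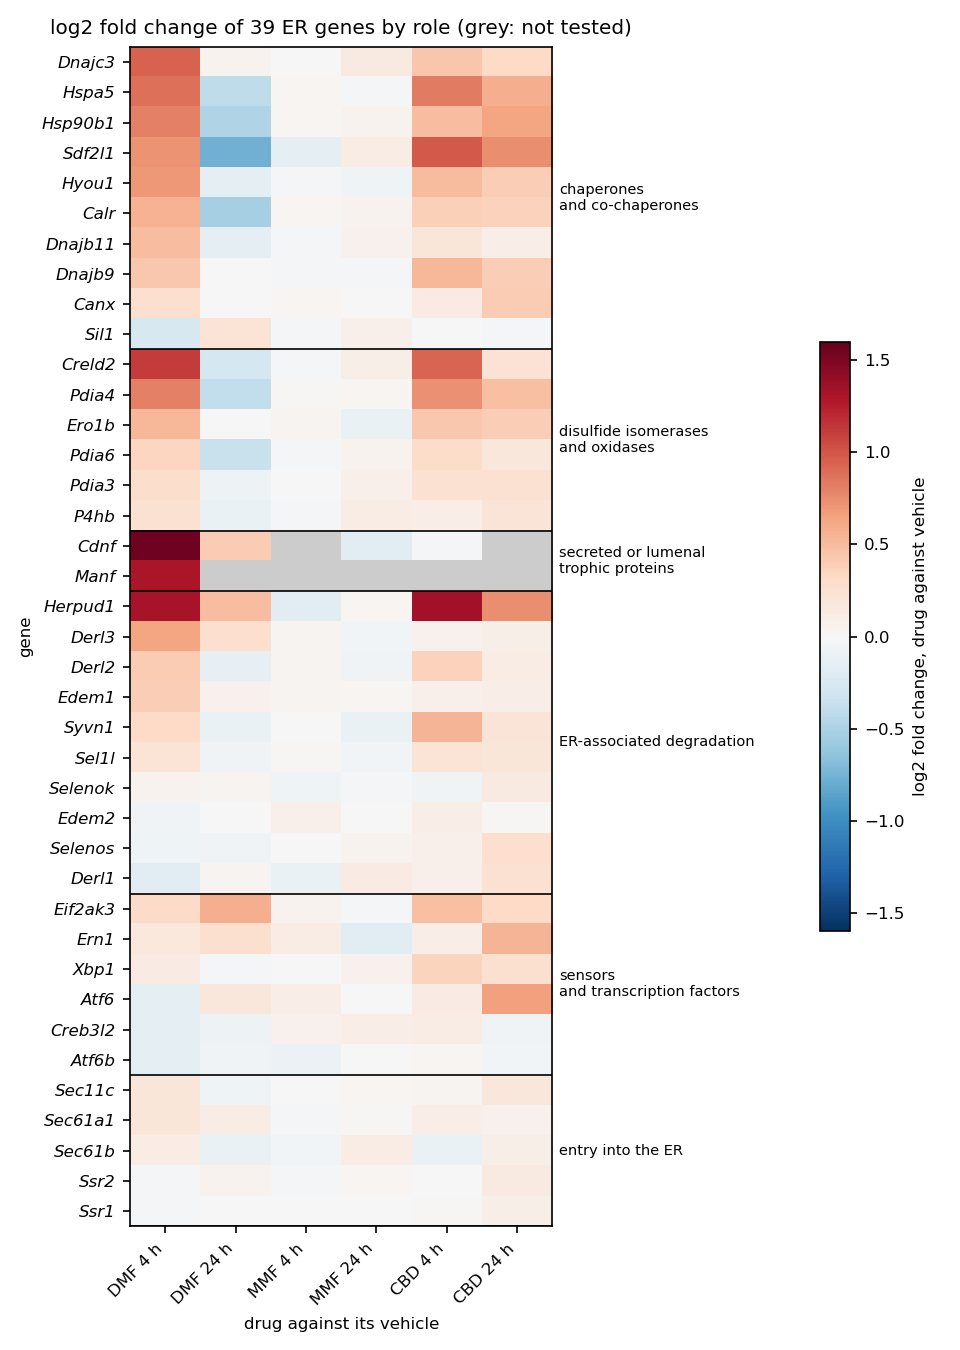
Heat map of the log2 fold change of each drug against its vehicle for the 39 genes, one row per gene in groups by role and one column per drug and time, with red for higher and blue for lower. The DMF 4 h and CBD columns are mostly red in the chaperones and disulfide enzymes, the DMF 24 h column is blue for *Sdf2l1*, *Calr* and *Hsp90b1*, and the MMF columns are near 0, with log2 fold changes of -0.19 to 0.14.

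After 4 h of DMF, chaperone and disulfide enzyme mRNAs were higher than with DMSO, by up to about 1 unit of log2 in the abundant genes, while sensors and translocation genes differed little. Of the 39 genes, 15 passed an adjusted p of 0.05, all of them higher. Over all genes tested the share that passed was 3.41%, and 1.87% passed as higher. The median log2 fold change of the 39 was 0.31, against 0.00 over all genes, and 30 of 39 were above 0 (50.6% of all genes). With the replicate number as a block, 26 passed, 25 higher and 1 lower (*Derl1*), and 23% of all genes did. This contrast was used to choose the list, so the counts describe it and support nothing. Leaving out any one library left 5 to 9 genes, with 5 without DMF replicate 2. Over all genes 28 to 154 passed in those fits, against 485 with every library. *Creld2*, *Hspa5*, *Hsp90b1*, *Hyou1* and *Pdia4* passed in all 6 of those fits.

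Among the chaperones, *Hspa5* encodes BiP, the main Hsp70 of the ER and the partner that keeps the 3 sensors inactive (ENSRNOG00000018294, mRatBN7.2 chromosome 3, 18055405 to 18059891). Its 3 DMF libraries had 15615, 15487 and 15502 normalized counts and its DMSO libraries 8912, 7767 and 8604. The groups were far apart, and the log2 fold change was 0.88 (SE 0.08). *Hsp90b1*, which encodes the ER Hsp90 GRP94 (chromosome 7, 21110457 to 21124788), had 13821, 13796 and 12849 normalized counts with DMF and 7969, 7732 and 7376 with DMSO, a log2 fold change of 0.81 (SE 0.08). Both were higher by nearly the same log2 amount in each repeat: 0.81, 1.00 and 0.85 for *Hspa5* and 0.79, 0.84 and 0.80 for *Hsp90b1*, as same-number ratios of DMF to DMSO.

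*Dnajc3* encodes a lumenal co-chaperone of BiP. It had 692, 699 and 688 normalized counts with DMF and 349, 413 and 327 with DMSO, a log2 fold change of 0.94 (SE 0.11), with no overlap. *Hyou1*, the Hsp70-like exchange factor of BiP, had 5651, 5893 and 6190 against 3643, 3572 and 3788 (0.69, SE 0.07). *Sdf2l1*, a component of BiP and co-chaperone complexes, had 298, 368 and 367 against 185, 224 and 218 (0.71, SE 0.13). These 3 genes were higher in every DMF library than in any DMSO library.

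*Calr*, the lumenal lectin chaperone calreticulin, had 15107, 14875 and 14792 normalized counts with DMF and 10601, 9739 and 10161 with DMSO, a log2 fold change of 0.55 (SE 0.07). *Dnajb11*, a J-domain partner of BiP, had 2203, 2160 and 2205 against 1556, 1613 and 1494 (0.49, SE 0.06). Neither pair of groups overlapped. *Dnajb9*, another J-domain protein, and *Canx*, the membrane lectin calnexin, had log2 fold changes of 0.43 (SE 0.12) and 0.25 (SE 0.09) and were among the genes past the threshold only with the block. *Sil1*, a second exchange factor of BiP, was the one chaperone gene with a value below 0, -0.26 (SE 0.15), and its groups overlapped. In all, 7 of the 10 chaperone genes passed, with a median log2 fold change of 0.62.

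Of the 6 genes of disulfide formation, 4 passed. *Creld2*, which encodes a secreted-pathway protein with isomerase activity (chromosome 7, 119909633 to 119916543), had 1035, 958 and 1131 normalized counts with DMF and 473, 451 and 506 with DMSO, a log2 fold change of 1.12 (SE 0.09). *Pdia4*, an isomerase with extra thioredoxin domains, had 2247, 2419 and 2170 against 1354, 1371 and 1173 (0.81, SE 0.08). *Ero1b*, the oxidase that recharges the isomerases, had 789, 728 and 838 against 521, 599 and 514 (0.53, SE 0.10). Every DMF library lay above every DMSO library in these 3 genes. The other isomerase genes moved less, with log2 fold changes of 0.34 (SE 0.07) for *Pdia6*, which passed, 0.29 (SE 0.07) for *Pdia3* and 0.25 (SE 0.09) for *P4hb*.

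ER-associated degradation, the export of misfolded proteins to the proteasome, was split. *Herpud1*, a membrane organizer of the degradation complex (chromosome 19, 10598417 to 10618424), had 1188, 1202 and 1931 normalized counts with DMF and 577, 504 and 615 with DMSO, a log2 fold change of 1.31 (SE 0.18). *Derl3*, of the derlin family of membrane channel proteins, had 331, 353 and 360 against 196, 219 and 265 (0.63, SE 0.13). *Edem1*, which helps to extract misfolded glycoproteins, had 1358, 1462 and 1414 against 977, 1067 and 1178 (0.40, SE 0.09). These 3 of the 10 degradation genes passed, with no overlap between groups, and the spread among the DMF libraries was widest in *Herpud1*, where replicate 3 was highest.

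The derlin gene *Derl2*, the ubiquitin ligase gene *Syvn1* and its partner *Sel1l* had log2 fold changes of 0.40 (SE 0.10), 0.32 (SE 0.10) and 0.22 (SE 0.08), and passed only with the block. *Derl1* had -0.17 (SE 0.12), *Edem2* -0.05 (SE 0.10), and the genes of the selenoproteins of the degradation complex -0.06 (SE 0.14) for *Selenos* and 0.05 (SE 0.12) for *Selenok*. In each of these 4 genes the DMF and DMSO libraries overlapped. The family was thus not uniform even among its derlins, which ranged from -0.17 to 0.63.

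None of the 6 sensor and transcription factor genes passed after 4 h of DMF without the block. *Eif2ak3* had 919, 941 and 944 normalized counts with DMF and 742, 818 and 706 with DMSO, a log2 fold change of 0.31 (SE 0.08), and passed with the block. *Ern1* had 197, 182 and 210 against 169, 173 and 180 (0.17, SE 0.12). *Xbp1* had 1562, 1630 and 1634 against 1473, 1450 and 1476 (0.13, SE 0.06). The groups of these 3 genes did not overlap, although the differences were small. *Atf6* had 898, 851 and 891 with DMF and 1007, 878 and 1033 with DMSO (-0.14, SE 0.08), and the groups overlapped. Its homologue *Atf6b* and *Creb3l2*, a membrane-bound factor related to ATF6, had -0.15 (SE 0.11) and -0.14 (SE 0.17). Gene totals cannot show the splicing of *Xbp1* mRNA or the cleavage of ATF6.

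Genes of entry into the ER moved least. The translocon genes *Sec61a1* and *Sec61b* had log2 fold changes of 0.19 (SE 0.06) and 0.12 (SE 0.10), the signal peptidase gene *Sec11c* 0.19 (SE 0.08), and the translocon-associated genes *Ssr1* and *Ssr2* -0.03 (SE 0.08) and -0.02 (SE 0.08). The paralogous trophic factors *Cdnf* and *Manf* had few reads, with at most 28.1 and 18.0 normalized counts in any library on the scale common to all 30. On the scale of the DMF and DMSO pair, *Cdnf* had 29.0, 19.6 and 28.8 with DMF and 9.54, 5.85 and 9.11 with DMSO (1.55, SE 0.34), the largest fold change of the list and among its least precise. *Manf* had 1.31 (SE 0.35) and passed only with the block. Neither gene had enough reads to be tested in MMF against DMSO at 4 h. Both thus passed the read filter here through the DMF libraries in which they were high. The counts of called and non-overlapping genes for DMF at 4 h include both, with *Manf* called only with the block.

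Over the list, the DMF and DMSO groups did not overlap in 27 of 39 genes at 4 h, all higher with DMF, against 26.3% of all genes. The summed level of the 39 genes was 116157 to 118818 normalized counts with DMF and 84425 to 87447 with DMSO. In bulk libraries, fewer cells of a type and less RNA per cell cannot be told apart. Among the cell type markers, 1 of the 8 neuronal genes was lower with DMF at 4 h (*Tubb3*) and none of the astrocyte, oligodendrocyte, microglia or dividing-cell genes passed. With the block, the dividing-cell genes *Top2a*, *Mki67* and *Ccnb1* and the neuronal gene *Rbfox3* passed as higher. *Tubb3*, *Gad1*, *Gfap*, *Pdgfra* and *Sox10* passed as lower with it, and no microglia gene passed. Their part in the ER values was not tested.

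**Figure D2:**
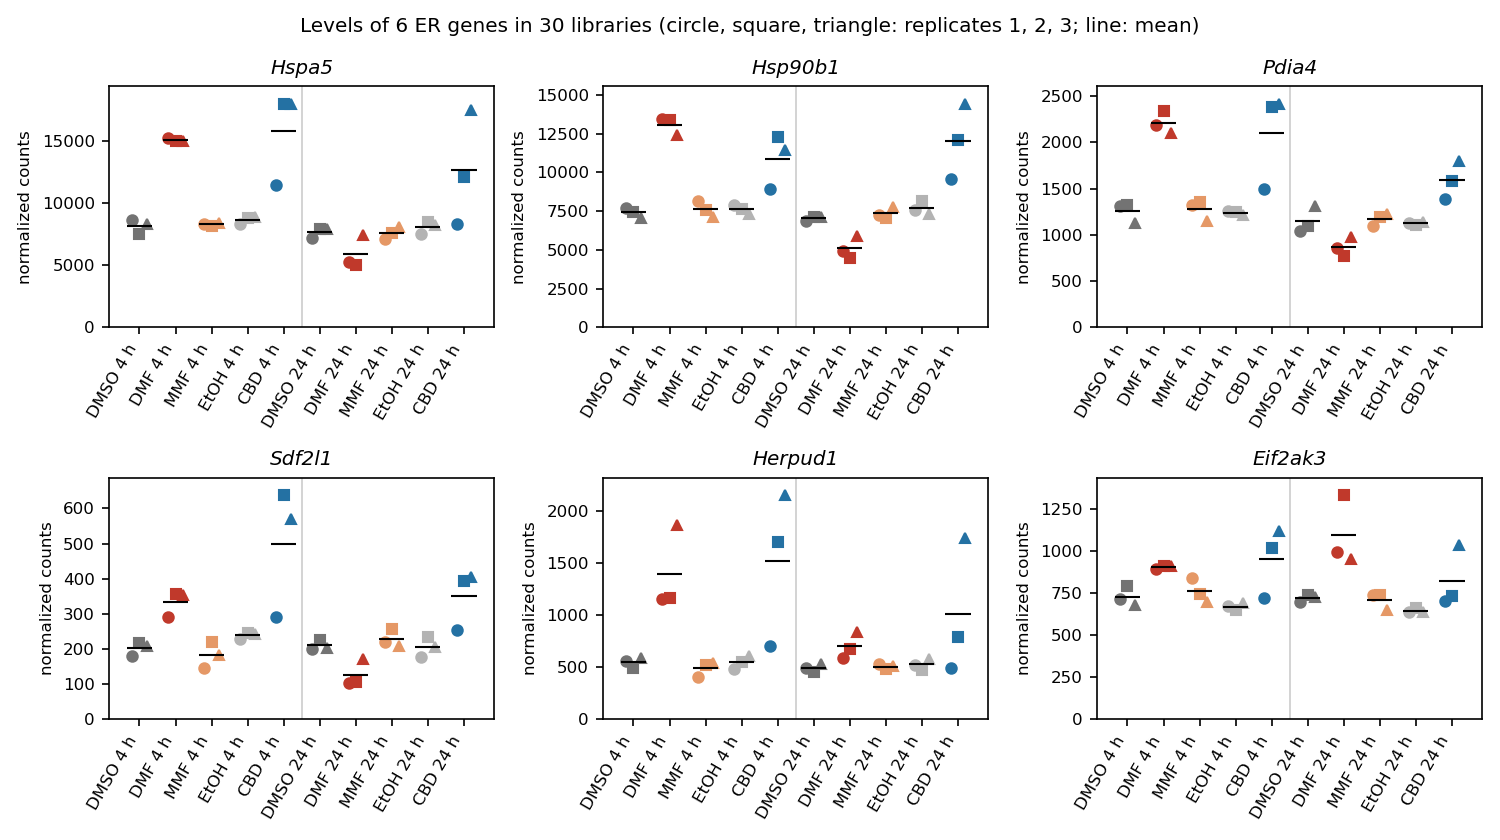
Normalized counts, on one scale over all libraries, of *Hspa5*, *Hsp90b1*, *Pdia4*, *Sdf2l1*, *Herpud1* and *Eif2ak3* in the 10 groups, with one symbol per library (circle, square and triangle for replicates 1, 2 and 3) and a line at the mean. *Hspa5* lies at 14993 to 15169 in the 3 DMF 4 h libraries, at 4981 to 7443 in the DMF 24 h libraries, and at 8324 to 17427 in the CBD 24 h libraries, whose replicate 1 is lowest.

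At 24 h of DMF, 2 of the 10 chaperone genes (*Calr* and *Hsp90b1*) and 1 of the 6 disulfide genes (*Pdia6*) fell against DMSO, and *Eif2ak3* rose. These were the 4 of 38 genes tested that passed. Among the other abundant genes, *Canx* was at -0.01 (SE 0.07), *Pdia3* at -0.08 (SE 0.06) and *P4hb* at -0.10 (SE 0.08), and their groups overlapped. Over all genes 3.97% passed, 2.09% as lower. *Calr* had 6040, 6022 and 7336 normalized counts with DMF and 8883, 9525 and 9641 with DMSO, a log2 fold change of -0.54 (SE 0.09, limma, adjusted p = 0.0123). *Hsp90b1* had 4702, 4253 and 5661 against 6557, 6840 and 6822 (-0.48, SE 0.10, limma, adjusted p = 0.032). *Pdia6* had 3238, 2974 and 3666 against 4139, 4176 and 4264 (-0.35, SE 0.08, limma, adjusted p = 0.0449). In all 3 genes every DMF library was below every DMSO library, and DMF replicate 3 was nearest to the controls.

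The opposite direction was seen in the PERK gene. *Eif2ak3* (chromosome 4, 102805510 to 102866911) had 951, 1274 and 914 normalized counts with DMF and 668, 708 and 692 with DMSO, a log2 fold change of 0.59 (SE 0.12, limma, adjusted p = 0.032). The other sensor genes *Atf6* (0.18, SE 0.09) and *Ern1* (0.26, SE 0.12) were higher in every DMF library than in any DMSO library but did not pass (limma, adjusted p = 0.32 and 0.329), and *Xbp1* was at -0.02 (SE 0.07).

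With the replicate block, 8 of the 38 genes passed, against 12.9% of all genes. The 4 added were *Pdia4* (-0.40, limma with the block, adjusted p = 0.00416), *Sdf2l1* (-0.76, adjusted p = 0.0131), *Hspa5* (-0.40, adjusted p = 0.0148) and, as the second gene that rose, *Herpud1* (0.49, adjusted p = 0.00526). *Sdf2l1* had 97.4, 101 and 164 normalized counts with DMF and 192, 215 and 194 with DMSO. *Hspa5* had 5041, 4760 and 7113 against 6889, 7533 and 7560, and the groups overlapped because of replicate 3. *Herpud1*, at 565, 640 and 797 against 469, 436 and 507, thus kept a higher level while BiP and GRP94 were lower.

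The count at 24 h moved with single libraries, as did the count over all genes. Without DMF replicate 3, 9 genes passed, and without any one of the 3 DMSO libraries none did, and 2 or 1 passed without DMF replicate 1 or 2. Over all genes 1165 passed without DMF replicate 3 and 141 to 267 without a DMSO library. Without DMF replicate 1 or 2 it was 379 or 233 of all genes, against 554 with every library. The median over the 38 genes was -0.04 (all genes -0.01), and the groups did not overlap in 10 of them, 4 higher and 6 lower, against 22.8% of all genes. Among the genes that did not pass, *Dnajc3*, *Ero1b* and *Dnajb9*, all higher at 4 h, had log2 fold changes of 0.05 (SE 0.09), 0.00 (SE 0.11) and -0.00 (SE 0.11). *Creld2* had -0.29 (SE 0.14), *Hyou1* -0.16 (SE 0.10) and *Derl3* 0.27 (SE 0.13), while *Cdnf* had 0.41 (SE 0.31). All 5 dividing-cell genes were lower with DMF at 24 h (median log2 fold change -1.04), as were 3 of 7 oligodendrocyte lineage genes and 1 of 6 astrocyte genes, while no neuronal gene passed. With the block, 3 of 8 neuronal genes (*Tubb3*, *Nefl* and *Syt1*) were also lower. Of the 6 astrocyte genes 3 were then lower (*Aqp4*, *Aldh1l1* and *Slc1a3*) and *Gfap* was higher. Dividing-cell markers summed to 1411 to 1697 normalized counts with DMF and 3437 to 3823 with DMSO. The part of these cells in the ER values was not tested.

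Set against the DMF libraries at 4 h, those at 24 h were lower in 16 of 39 genes and higher in 1, *Sil1* (0.64, SE 0.16). Over all genes 15.5% passed, 7.93% as lower at 24 h, and with the block 26 genes and 32.3% of all genes did. Of the genes that passed, those furthest below 0 were *Creld2* (-1.50, SE 0.14), *Sdf2l1* (-1.42, SE 0.21), *Hspa5* (-1.37, SE 0.14), *Hsp90b1* (-1.36, SE 0.11) and *Pdia4* (-1.34, SE 0.10). *Manf*, with few reads, had -1.51 (SE 0.45) and did not pass. In DMSO alone, 0 of 38 genes differed between 24 h and 4 h (limma, 0% of all genes). At an unadjusted p of 0.05 it was also 0 of the list, against 9.75% of all genes. *Hspa5* there had a log2 difference of -0.08 (SE 0.08). The DMF effect at 24 h minus that at 4 h was past the threshold in 12 genes, all lower, against 4.12% of all genes, with *Sdf2l1* at -1.48 (SE 0.25) and *Creld2* at -1.41 (SE 0.17). These comparisons share the DMF 4 h libraries with the choice of the list and are given as a description.

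**Figure D3:**
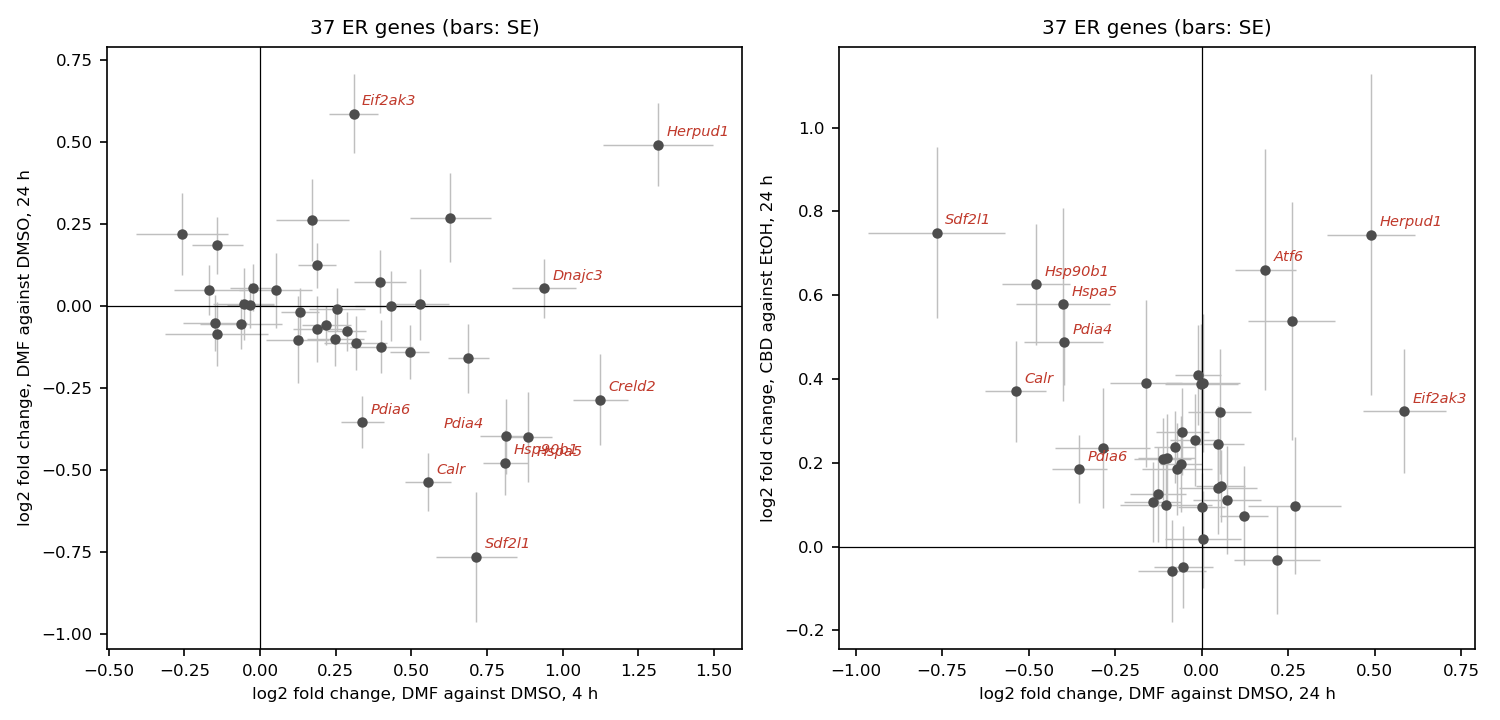
Log2 fold changes of 37 genes, each drug against its vehicle, with their SE. On the left, DMF at 24 h (vertical) is plotted over DMF at 4 h (horizontal). On the right, CBD at 24 h (vertical) is plotted over DMF at 24 h (horizontal). *Hspa5*, *Hsp90b1*, *Calr*, *Pdia4* and *Sdf2l1* lie at positive values for DMF at 4 h and CBD at 24 h and at negative values for DMF at 24 h, and *Herpud1* and *Eif2ak3* are positive in all 3.

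MMF is the monomethyl ester of fumaric acid and DMF the dimethyl ester, so the molecules differ by 1 methyl ester. They were compared as 1 pair at the same 30 µM dose at each of 2 times. After 4 h of MMF, 0 of 37 genes passed against DMSO (limma, 0% of all genes). At an unadjusted p of 0.05 also 0 passed, against 0.257% of all genes, and DESeq2 and edgeR called 0. *Hspa5* had 7859, 7699 and 7912 normalized counts with MMF and 8143, 7087 and 7850 with DMSO, a log2 fold change of 0.03 with a 95% interval of -0.16 to 0.22. The intervals of the 37 genes together ran from -0.56 (*Sdf2l1*) to 0.50 (*Derl3*). In none of them were the groups apart, against 2.76% of all genes.

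After 24 h of MMF, 0 of 38 genes passed (limma, 0.00707% of all genes), and 0 by DESeq2 or edgeR. At an unadjusted p of 0.05 there was 1, against 4.43% of all genes. With the block 0 passed, although 1.38% of all genes did. *Hspa5* had 7143, 7581 and 8071 with MMF and 7248, 7913 and 7940 with DMSO, a log2 fold change of -0.02 with an interval of -0.16 to 0.13. The groups did not overlap in 6 genes, 5 higher and 1 lower, against 9.73% of all genes, and the largest of those differences was -0.17 (*Ern1*). *Calr* was among the 5, with a log2 fold change of 0.06 and an interval of -0.06 to 0.18.

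Set directly against each other at 4 h, DMF exceeded MMF in 9 of 39 genes (1.61% of all genes passed). With the block 25 passed, against 23.6% of all genes. Without the block, leaving out MMF replicate 2 or DMF replicate 1 or 2 left 0 genes, and leaving out any other library left 6 or 7. Over all genes 0 to 64 passed in those fits, against 229 with every library. *Hspa5* had 15462, 15316 and 15315 normalized counts with DMF and 8542, 8370 and 8606 with MMF (0.85, SE 0.08), and *Herpud1* had 1177, 1189 and 1908 against 412, 533 and 553 (1.48, SE 0.20). These values are descriptions, since the DMF libraries are those of the choice.

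At 24 h, 5 of 38 genes differed between the esters, against 3.56% of all genes. *Calr* was lower with DMF than with MMF by -0.60 (SE 0.09, limma, adjusted p = 0.00757), *Hsp90b1* by -0.54 (SE 0.10, adjusted p = 0.0266), *Pdia6* by -0.42 (SE 0.08, adjusted p = 0.03) and *Pdia4* by -0.43 (SE 0.10, adjusted p = 0.0496). *Calr* had 6676, 6657 and 8097 normalized counts with DMF and 10691, 10992 and 10683 with MMF, so the groups were well apart. *Eif2ak3* was higher with DMF, at 1051, 1409 and 1009 against 781, 779 and 688 (0.61, SE 0.13, limma, adjusted p = 0.0383). With the block 10 passed, against 12.2% of all genes. The added genes were *Sdf2l1* (-0.88, limma with the block, adjusted p = 0.0103), *Hspa5* (-0.38, adjusted p = 0.0134), *Creld2* (-0.38, adjusted p = 0.0355), *Herpud1* (0.45, adjusted p = 0.0178) and *Ern1*. Leaving out 1 library left 0 genes without MMF replicate 1, 1 gene without either other MMF library or DMF replicate 1 or 2, and 8 genes without DMF replicate 3. Over all genes 156 to 711 passed in those fits, against 506 with every library. For *Dnajc3* the difference at 24 h was -0.09, with an interval of -0.31 to 0.13.

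CBD, a cannabinoid given at a lower dose and in another vehicle, also went with higher chaperone mRNAs, but unevenly over the repeats. Without the block, 0 of 38 genes passed at 4 h (limma, 0.00705% of all genes, 0 by edgeR and 6 by DESeq2), although 19 had an unadjusted p under 0.05, against 3.97% of all genes. DESeq2 called 18 of 14193 genes in all. With the replicate block, which compares each CBD library with the EtOH library of its own repeat, 18 of 38 passed and all 18 rose, against 2.33% of all genes, 1.66% as higher. The median log2 fold change was 0.16 (all genes 0.00), and 34 of 38 were above 0 (49.7% of all genes).

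*Hspa5* had 11636, 18202 and 18172 normalized counts with CBD and 8452, 8926 and 8983 with EtOH, a log2 fold change of 0.84 (SE 0.17, limma, adjusted p = 1, with the block SE 0.08 and adjusted p = 2.19e-06). The CBD libraries were all above the EtOH libraries, but replicate 1 was raised by 0.46 on the log2 scale and the others by 1.03 and 1.02. The same uneven pattern was present in *Herpud1*, with 716, 1727 and 2181 against 488, 555 and 612 (1.34, block SE 0.14, limma with the block, adjusted p = 1.74e-05). *Sdf2l1* had 295, 647 and 578 against 232, 248 and 247 (0.98, block SE 0.13, adjusted p = 0.000295), and *Creld2* had 629, 1167 and 1202 against 516, 511 and 479 (0.93, block SE 0.12, adjusted p = 0.00022).

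*Pdia4* had 1520, 2418 and 2446 normalized counts with CBD and 1275, 1264 and 1232 with EtOH (0.73, block SE 0.09, limma with the block, adjusted p = 0.000133). *Hsp90b1* had 9055, 12477 and 11576 against 8017, 7800 and 7455 (0.50, block SE 0.07, adjusted p = 0.000317), and *Syvn1* 1365, 1722 and 1935 against 1081, 1180 and 1159 (0.54, block SE 0.06, adjusted p = 6.58e-05). In each of these 3 genes the CBD library of replicate 1 was the lowest of its group and still above every EtOH library. By role, 7 of 10 chaperone genes, 5 of 6 disulfide genes, 4 of 10 degradation genes and 2 of 6 sensor and factor genes passed with the block, and none of the 5 entry genes did. The sensors' 2 were *Xbp1* (0.36, adjusted p = 0.00103) and *Eif2ak3* (0.48, adjusted p = 0.00319).

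The median same-number log2 ratio of the 38 genes was 0.07 in replicate 1, 0.32 in replicate 2 and 0.19 in replicate 3. With the block and without replicate 1, 2 or 3 of both groups, 19, 16 and 13 genes passed. Over all genes 398, 271 and 205 did. Without the block, leaving out CBD replicate 1 gave 5 genes, against 12 of 14309 over all genes, and leaving out any other library gave 0 of the list. DESeq2 with the block called 5 genes and edgeR with the block 18, against 92 and 372 over all genes. No marker of any of the 5 cell type lists passed without the block, and with it *Olig2* alone did. The CBD and EtOH groups did not overlap in 17 of 38 genes, all higher, against 9.95% of all genes.

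**Figure D4:**
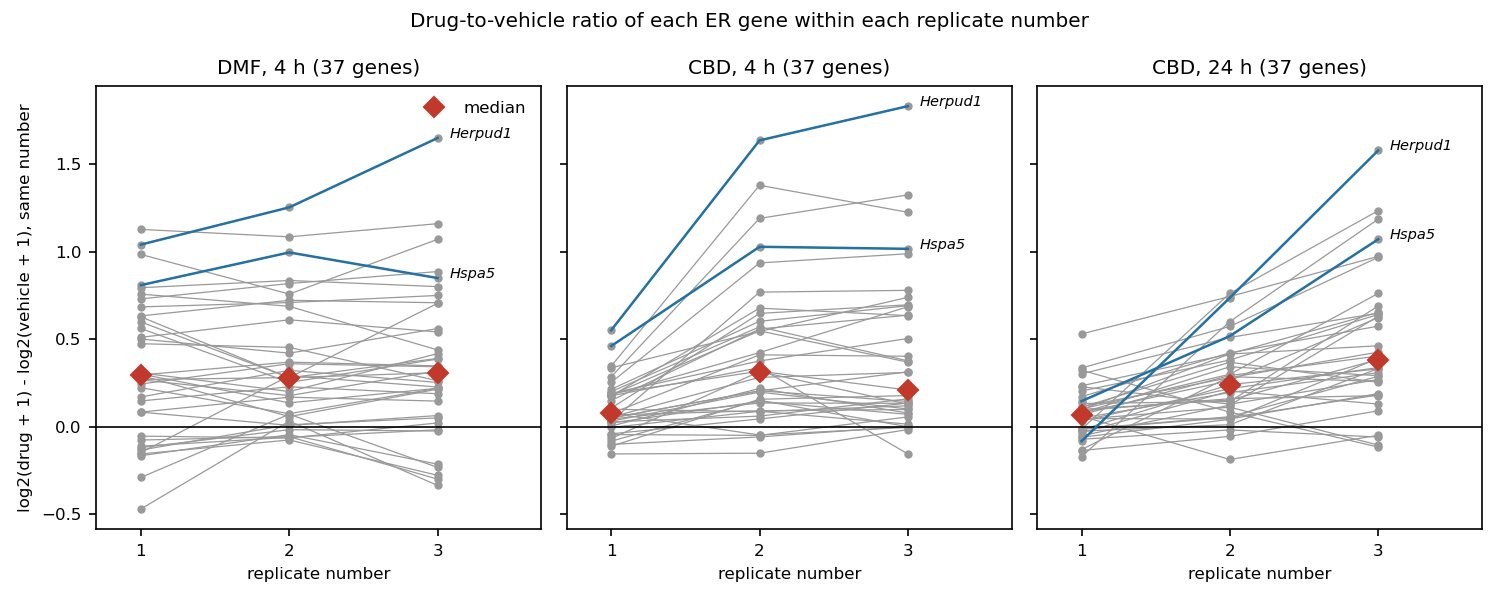
Log2 ratio of drug to vehicle within each replicate number for 37 genes (*Cdnf* and *Manf* left out), one grey line per gene, with *Hspa5* and *Herpud1* in blue and the median as a diamond. The lines join the values of one gene and mark no order among replicates. The medians over the 3 numbers lie close together for DMF at 4 h, although single genes such as *Herpud1* vary, and the CBD medians are smallest in replicate 1 at both times.

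At 24 h of CBD, 0 of 37 genes passed (limma, 0.114% of all genes, 0 with the block, where 0.504% of all genes passed), 0 passed by edgeR and 4 passed by DESeq2. DESeq2 called 170 of 14079 genes in all. At an unadjusted p of 0.05 there were 13, against 9.83% of all genes. The median log2 fold change was 0.23 (all genes -0.00), 34 of 37 were above 0, and the groups did not overlap in 14, all higher, against 15.9% of all genes. *Hspa5* had 8158, 11879 and 17042 normalized counts with CBD and 7371, 8295 and 8113 with EtOH, a log2 fold change of 0.58 (SE 0.23, limma, adjusted p = 0.485). *Hsp90b1* had 9372, 11902 and 14108 against 7427, 8000 and 7214 (0.63, SE 0.15, adjusted p = 0.294). *Pdia4* had 1363, 1552 and 1754 against 1106, 1089 and 1118 (0.49, SE 0.10, adjusted p = 0.244, the smallest of the list). CBD replicate 1 was lowest and replicate 3 highest in each of these 3 genes.

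A wider spread among the CBD libraries was present in *Atf6*, *Ern1* and *Herpud1*. *Atf6* had 810, 1382 and 2100 with CBD and 818, 814 and 892 with EtOH (0.66, SE 0.29, limma, adjusted p = 0.508), *Ern1* 144, 226 and 351 against 163, 149 and 154 (0.54, SE 0.28, adjusted p = 0.573) and *Herpud1* 483, 773 and 1704 against 512, 464 and 570 (0.74, SE 0.38, adjusted p = 0.563). In these genes CBD replicate 1 was at or below the EtOH libraries or among them, and only the other 2 libraries were above it. Leaving out CBD replicate 1 gave 4 called genes, against 116 of 14347 over all genes, and leaving out any other library gave 0 of the list. The median log2 fold change of the list was 0.30 without CBD replicate 1 and 0.15 without CBD replicate 3. Among the cell type markers at 24 h of CBD, *Gad1* alone passed, as lower. All 8 neuronal markers had values below 0 (median -0.23), and in 5 of them every CBD library was below every EtOH library. The 6 astrocyte markers had a median of -0.46, with 1 above 0. The 7 oligodendrocyte lineage markers had a median of 0.00, the 5 dividing-cell markers of -0.21 and the 2 tested microglia markers of -0.15. The part of these cells in the ER values was not tested.

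DMF and CBD at 24 h, which share no library, differed from each other in 3 of 38 genes by the test of the difference of their effects (0.391% of all genes). The CBD effect exceeded the DMF effect by 0.91 log2 units in *Calr* (SE 0.15, limma, adjusted p = 0.0249), by 1.10 in *Hsp90b1* (SE 0.19, adjusted p = 0.0275) and by 0.89 in *Pdia4* (SE 0.16, adjusted p = 0.0414). With the block 6 passed, against 2.82% of all genes, with *Hspa5* (0.98, limma with the block, adjusted p = 0.0379), *Pdia6* (0.54, adjusted p = 0.02) and *Sdf2l1* (1.51, adjusted p = 0.00907) added. The dose, the vehicle and the drug all differ between these effects. The count was 0 to 5 when single libraries were left out. It was 5 without CBD replicate 1 or DMF replicate 3, 3 without CBD replicate 3, 2 without EtOH replicate 2, and 0 without any of the others. Of all genes, 25 to 168 passed in those fits, against 56 with every library. Over the 10 groups, on one scale, 16 of the 39 genes had their lowest mean in DMF at 24 h. The highest mean was in DMF at 4 h for 15 genes, in CBD at 4 h for 10 and in CBD at 24 h for 11. How often genes outside the list had their extremes in these groups was not counted. The count for DMF at 4 h uses the libraries of the choice.

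Other genes of the pathway were read from a list of 79, of which 73 were listed and 72 tested. After 4 h of DMF, 2 rose and 1 fell, near the 3.41% of all genes that passed. *Sesn2*, a stress-induced gene listed here with the PERK and amino acid response branch, had 2224, 2583 and 3269 normalized counts with DMF and 950, 905 and 960 with DMSO (1.50, SE 0.13). *Ddit3*, which encodes the transcription factor CHOP, had 626, 566 and 754 against 297, 278 and 293 (1.15, SE 0.12). *Mbtps1*, the gene of the Golgi protease that cleaves ATF6, had 1523, 1533 and 1324 against 2241, 2116 and 2206 (-0.59, SE 0.08). The median of the 72 was 0.09. *Atf4* (0.30, SE 0.09), *Chac1* (1.09, SE 0.26) and *Trib3* (0.85, SE 0.50) did not pass without the block and passed with it. With the block 22 of the 72 passed, 18 higher and 4 lower, against 23% of all genes.

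After 24 h of DMF, 5 of the 72 passed, all higher, against 3.97% of all genes. Of these, 4 were listed with the PERK and amino acid response branch. With the block 12 passed, 10 higher and 2 lower, against 12.9% of all genes. *Chac1*, a glutathione-degrading enzyme, had 404, 579 and 571 normalized counts with DMF and 214, 192 and 206 with DMSO (1.32, SE 0.14, limma, adjusted p = 0.002). *Ddit3* had 453, 657 and 605 against 293, 268 and 293 (0.99, SE 0.14, adjusted p = 0.00603), and *Trib3*, a pseudokinase, 37.9, 104 and 238 against 9.81, 12.8 and 14.9 (2.90, SE 0.55, adjusted p = 0.0244). *Sesn2* (1.09, SE 0.21, adjusted p = 0.0244) and *Ufd1*, a cofactor of the degradation ATPase VCP (0.40, SE 0.07, adjusted p = 0.0153), also rose. These genes were thus higher in the same libraries in which *Calr*, *Hsp90b1* and *Pdia6* were lower. The activity of PERK was not measured, and which sensor or factor raised these genes was not tested. *Atf4* itself had 0.30 (SE 0.12, adjusted p = 0.227).

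With MMF, 0 of the 72 passed at either time, with or without the block. *Ddit3* had log2 fold changes of 0.03 (SE 0.15) and -0.08 (SE 0.08) at 4 h and 24 h. With CBD, 0 of 72 passed without the block at either time. With the block 8 passed at 4 h, all higher, against 1.66% of all genes that passed as higher, among them *Ddit3*, at 373, 748 and 839 normalized counts against 279, 272 and 345 (1.05, limma with the block, adjusted p = 0.00011). *Trib3* at 24 h of CBD had 10.3, 385 and 1274 against 11.0, 23.5 and 16.3 (3.37, SE 1.45, limma, adjusted p = 0.507), so that replicate 1 was at the EtOH level and the other libraries far above it. *Chac1*, at 163, 545 and 1749 with CBD, and *Sesn2*, at 764, 2516 and 6186 with CBD, had the same order of libraries. *Ppp1r15a*, another target of the branch, was not listed under that symbol.

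Finally, the genes were set out by the promoter elements shown at the start, as a description with no test. After 4 h of DMF the 12 genes with an ERSE or ERSE-II in the window had a median log2 fold change of 0.66, from 0.13 (*Xbp1*) to 1.31 (*Herpud1*), and the 20 with neither had 0.20, from -0.26 to 1.55. All 12 with an element were higher in each of the 3 same-number pairs, as were 12 of the 20 without, against 27.3% of all genes. This contrast was used to choose the list. The genes with neither include the entry genes *Sec61b*, *Sec11c*, *Ssr1* and *Ssr2*, so role and element were not separated. *Pdia4* and *Sdf2l1*, at 0.81 and 0.71, were in the group with neither. After 4 h of CBD the medians were 0.44 and 0.09, and after 24 h of CBD 0.38 and 0.14. After 24 h of DMF they were -0.08 and -0.05, and the 12 with an element spanned -0.54 (*Calr*) to 0.49 (*Herpud1*). With MMF the medians of both groups lay between -0.01 and 0.05. The 7 listed genes with no window are in neither group.

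**Figure D5:**
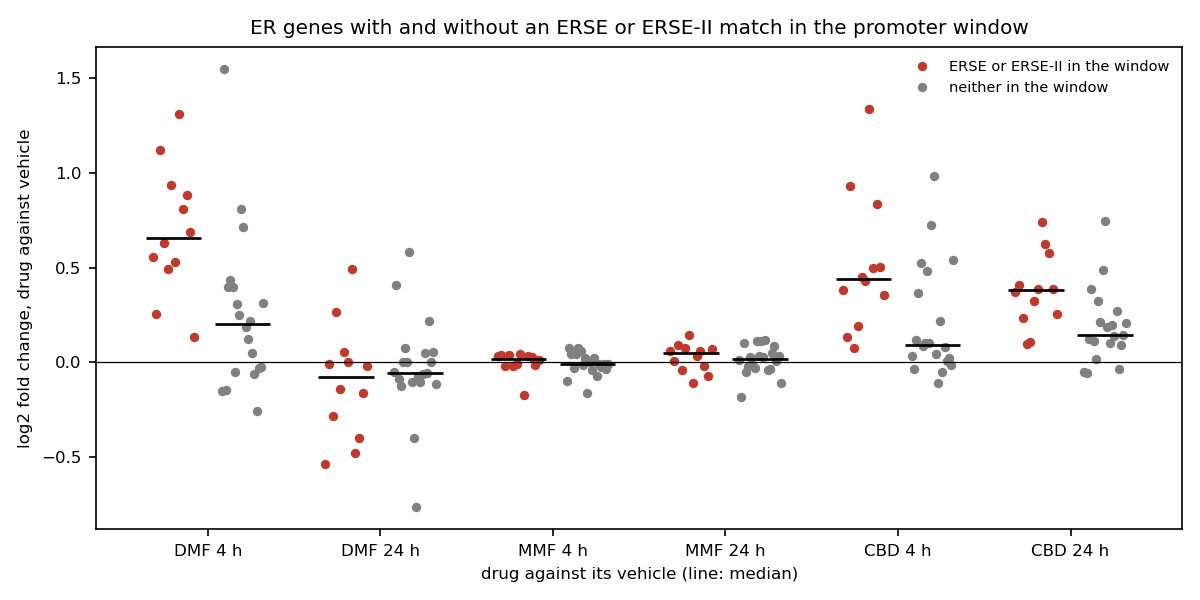
Log2 fold change of each gene against vehicle in the 6 drug comparisons, for the 12 genes with an ERSE or ERSE-II match in the promoter window (red) and the genes with neither (grey), with a line at the median. The red medians are higher than the grey ones for DMF at 4 h (0.66 and 0.20) and for CBD at 4 h (0.44 and 0.09), and the groups overlap in every comparison.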

How the data were processed

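Poly(A)+ RNA was sequenced as paired reads. As the labels and the study's methods state, the authors trimmed reads (cutadapt 4.4, Trimmomatic 0.39), aligned them to mRatBN7.2 (HISAT2 2.2.1), counted them per Ensembl gene (HTSeq 2.0.3) and normalized each pair of groups with DESeq2 1.40.2. The strand setting of the counting is not given in the sources used here. The deposited values are a signal: gene counts divided by size factors, 1 table per pair of groups, used here for 10 of 19 tables. Columns with the authors' own fold changes and p-values were not used.

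Each value divided by the step that 1 read is worth gave a whole number for 100% of values (tolerance 0.01 reads), so read counts were recovered, for the filter and the count tests. The normalized values were tested as log2(value + 1), after edgeR's filterByExpr, with limma 3.58.1 (moderated, with trend) in R 4.3.3, within each pair of groups. Fold changes on that scale are smaller than the true ones for low genes. P-values are two-sided, with the Benjamini-Hochberg adjustment taken over every gene that passed the filter and a threshold of 0.05. Levels over all 30 libraries use size factors recomputed from the recovered reads. SE is the standard error. P-values measure the spread between the 3 repeats, which the series describes as independent experiments.

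The members and gene lists were chosen with earlier results of these data known. Genes with all library values shown were those past the threshold with non-overlapping groups, at most 14 for DMF at 4 h by fold change and at most 8 elsewhere by p, with *Atf6*, *Ern1*, *Eif2ak3* and *Xbp1* for DMF at 4 h. Other values were added after they had been seen.

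Whether replicate numbers pair the samples was checked by the correlation of deviations from group means. Over the comparisons, same-numbered libraries had 0.129 to 0.668 and other numbers at most 0.185. The ranges overlapped for MMF against DMSO at 4 h (lowest same number 0.129, highest other 0.134). They also overlapped for DMSO over time (0.162 and 0.185). The number is a block in the alternative printed beside results. Other alternatives were DESeq2 1.42.0, edgeR 4.0.16 quasi-likelihood, no filter, a pseudocount of 0.1, TMM scaling and leaving out each library. Scripts were tested on simulated data. Promoter windows come from RefSeq (GRCr8), and coordinates of genes from the deposited tables (mRatBN7.2).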

Additional observations from a re-analysis of the deposited data

Results flagged for a closer look

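At 24 h, 3 of 38 genes differed between the CBD and the DMF effects by a test of the difference itself, against 0.391% of all genes. The count was 0 to 5 when single libraries were left out. The CBD effect minus the DMF effect was 0.91 in *Calr*, 1.10 in *Hsp90b1* and 0.89 in *Pdia4* on the log2 scale. In each, all 3 CBD libraries were above their EtOH libraries and all 3 DMF libraries below their DMSO libraries.

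For 6 genes, every DMF library was above every DMSO library at 4 h and below every DMSO library at 24 h. The groups did not overlap, in either direction, in 26.3% of all genes at 4 h and 22.8% at 24 h. The share of all genes that changed sides between the times was not counted. The DMF effect at 24 h minus that at 4 h was -1.09 in *Calr*, -1.29 in *Hsp90b1*, -1.21 in *Pdia4*, -0.69 in *Pdia6*, -1.48 in *Sdf2l1* and -0.53 in *Derl2*. These values use the libraries with which the genes were chosen. They are a description, and the difference was not tested as evidence.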

How the results depend on the processing

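Counts of called genes moved by more than 1.5 times under several settings. Counts over all genes moved as well. With the block, 485 became 3274 for DMF at 4 h, 554 became 1803 for DMF at 24 h and 1 became 330 for CBD at 4 h. The cause was not tested. For DMF at 4 h the 15 became 26 with the replicate block (23 by DESeq2 and 26 by edgeR with the block) and 5 to 9 when single libraries were left out. Over all genes, DESeq2 with the block called 1754 and edgeR with the block 3212. For DMF at 24 h the 4 became 8 with the block (8 by DESeq2 and 8 by edgeR with the block), 7 by DESeq2 and 0 to 9 on leaving out libraries. Over all genes, DESeq2 called 852 without the block and 1120 with it, and edgeR with the block 1822. For CBD at 4 h the 0 became 18 with the block (5 by DESeq2 and 18 by edgeR with the block; 19, 16 and 13 without replicate 1, 2 or 3 of both groups), 6 by DESeq2 and 0 to 5 on leaving out libraries. For CBD at 24 h the 0 became 4 by DESeq2, 6 by DESeq2 with the block and 0 to 4 on leaving out libraries. Over all genes the 16 became 170, 280 and 0 to 116 in the same fits. DMF at 24 h against 4 h gave 17, 26 with the block (26 by edgeR with the block) and 15 to 17 on leaving out libraries. Over all genes it gave 2216, 4616 with the block (4697 by edgeR with the block) and 941 to 1916 on leaving out libraries. DMF against MMF gave 9 at 4 h (25 with the block, 22 by DESeq2 and 24 by edgeR with the block, 15 by DESeq2, 0 to 7 on leaving out libraries, 0 without DMF replicate 1 or 2 or MMF replicate 2) and 5 at 24 h (10 with the block, 8 by DESeq2 and 10 by edgeR with the block, 0 to 8 on leaving out libraries). For DMF against MMF at 4 h, DESeq2 called 744 of all genes without the block and 1755 with it. There edgeR with the block called 3329. At 24 h, DESeq2 and edgeR with the block called 1119 and 1716 of all genes. The difference of the CBD and DMF effects gave 3, 6 with the block and 0 to 5 on leaving out libraries. The difference of the DMF effects gave 12, 21 with the block and 10 to 13 on leaving out libraries. Over all genes it gave 594, 2398 with the block and 275 to 642 on leaving out libraries. With MMF, and with DMSO over time, the count was 0 under every setting run. Over all genes, the block gave 0 for MMF at 4 h, 195 for MMF at 24 h and 205 for DMSO over time.

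Of the 22 values named for the DMF comparisons, no log2 fold change changed sign. Across their alternatives, 241 kept their side of the threshold, 63 lost it and 4 gained it. DESeq2 and edgeR with the block, and the CBD fits without a replicate number, were added after seeing the data. *Manf* and *Cdnf*, at under 30 normalized counts per library, were too low to be tested in every comparison.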
